A study of Mus musculus with 6 samples.

Results

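The interferon-responding iNKT cells are the sorted invariant natural killer T (iNKT) cells whose transcripts included several interferon-stimulated genes. They were selected on those transcripts: a cell with 300 to 4000 detected genes and at most 15% mitochondrial UMIs (unique molecular identifiers, counts of captured transcripts) was a member when at least 3 of the 8 rule genes Ifit1, Ifit3, Ifit3b, Rsad2, Usp18, Isg15, Cmpk2 and Ifi204 had a UMI and Top2a, a gene of dividing cells, had none. Of 16532 cells kept, 650 (3.93%) were members. The other 15882 cells are called the remaining cells, and members were always compared with the remaining cells of the same library.

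The study profiled iNKT cells of wild-type C57BL/6 mice aged 5 weeks by droplet 3′ single-cell RNA sequencing, in 2 libraries each from liver, spleen and lymph node. The labels name no transgene and no treatment for any library. Lymphocytes were depleted of CD8+ and B220+ cells and sorted for TCR-β and CD1d-tetramer binding. The study's methods describe the 2 libraries of an organ as biological repeats, and the labels give neither sex, processing batch nor the number of mice behind a library. All p-values take the library as the unit. Where members and remaining cells were compared within a library, they measure the spread of these differences over the libraries. Elsewhere they measure the spread between libraries.

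Cells sense type I interferon through a receptor of IFNAR1 and IFNAR2 chains, whose kinases JAK1 and TYK2 activate STAT factors. With IRF9 these form a complex that binds interferon-stimulated response elements in promoters and switches on genes that block viral replication, sense nucleic acids and present antigen. Interferon-γ acts through a receptor of its own, and many genes respond to both. iNKT cells are T cells with a semi-invariant antigen receptor for lipids on CD1d, and their iNKT1, iNKT2 and iNKT17 subsets are known for interferon-γ, IL-4 and IL-17.

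The promoters of some of the rule genes, and of genes that the rule did not use, were searched for the core letters of the element named above. The search was for the letters GAAA, 2 bases of any kind and GAAA again, on both strands (on the strand printed, TTTC, 2 bases and TTTC when the match lies opposite), and overlapping matches were counted. The same letters also fit elements bound by interferon regulatory factors alone. Each line gives the 250 bases before a RefSeq transcription start in GRCm38.p6, 5′ to 3′ on the gene's strand, with matches in capitals. Isg15, Ifit1, Rsad2 and Cmpk2 are rule genes, and Bst2, Gbp2, Irgm1 and B2m are genes outside the rule that were picked because their windows hold the match. The windows of Isg20, Ifit2, Oasl2, Irf7 and Phf11d, which are also described further on, held none.
Isg15: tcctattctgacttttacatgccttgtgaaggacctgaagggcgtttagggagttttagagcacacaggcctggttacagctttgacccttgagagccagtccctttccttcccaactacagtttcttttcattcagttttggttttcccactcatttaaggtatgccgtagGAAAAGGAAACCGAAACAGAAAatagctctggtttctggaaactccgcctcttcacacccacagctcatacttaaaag
Ifit1: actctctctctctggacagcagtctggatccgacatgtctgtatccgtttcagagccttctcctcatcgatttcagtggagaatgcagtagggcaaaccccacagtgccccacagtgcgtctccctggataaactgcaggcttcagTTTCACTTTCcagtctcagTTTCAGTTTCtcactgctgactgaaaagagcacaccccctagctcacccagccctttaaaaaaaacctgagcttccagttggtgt
Rsad2: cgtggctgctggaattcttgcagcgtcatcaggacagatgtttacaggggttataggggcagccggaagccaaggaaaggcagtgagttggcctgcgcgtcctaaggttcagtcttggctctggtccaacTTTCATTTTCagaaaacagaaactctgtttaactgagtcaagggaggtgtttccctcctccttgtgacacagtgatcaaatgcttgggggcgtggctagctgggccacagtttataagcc
Cmpk2: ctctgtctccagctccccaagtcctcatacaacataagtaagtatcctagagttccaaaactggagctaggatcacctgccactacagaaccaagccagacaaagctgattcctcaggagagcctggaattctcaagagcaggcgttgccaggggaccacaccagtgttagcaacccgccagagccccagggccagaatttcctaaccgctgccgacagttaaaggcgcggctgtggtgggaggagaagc
Bst2: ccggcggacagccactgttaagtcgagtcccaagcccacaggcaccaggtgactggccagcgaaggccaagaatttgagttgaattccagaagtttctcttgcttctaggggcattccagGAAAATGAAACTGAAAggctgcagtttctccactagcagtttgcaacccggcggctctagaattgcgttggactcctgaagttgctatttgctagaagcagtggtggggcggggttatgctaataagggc
Gbp2: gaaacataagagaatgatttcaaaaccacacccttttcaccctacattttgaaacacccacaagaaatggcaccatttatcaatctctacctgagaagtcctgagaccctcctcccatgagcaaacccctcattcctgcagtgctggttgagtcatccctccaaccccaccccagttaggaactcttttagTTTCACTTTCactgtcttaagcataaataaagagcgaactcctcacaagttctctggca
Irgm1: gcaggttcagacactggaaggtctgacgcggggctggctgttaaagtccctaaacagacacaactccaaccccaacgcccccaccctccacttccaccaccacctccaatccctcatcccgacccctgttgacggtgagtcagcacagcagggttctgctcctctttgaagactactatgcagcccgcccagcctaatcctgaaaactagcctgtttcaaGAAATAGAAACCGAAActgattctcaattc
B2m: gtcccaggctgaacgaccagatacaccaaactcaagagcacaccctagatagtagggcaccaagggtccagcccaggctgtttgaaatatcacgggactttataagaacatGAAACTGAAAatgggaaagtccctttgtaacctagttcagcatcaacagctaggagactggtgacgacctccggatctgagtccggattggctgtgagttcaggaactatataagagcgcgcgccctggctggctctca
In Isg15 (chr4:156200819-156201068, minus strand), which encodes a ubiquitin-like modifier, 3 matches overlapped in a single run starting 78, 72 and 66 bases before the start. Ifit1 (chr19:34640639-34640888, plus strand), which encodes a protein that binds foreign RNA caps, had matches 104 and 85 bases before the start. Rsad2 (chr12:26456453-26456702, minus strand), which encodes viperin, had 1 match 120 bases before the start, and Cmpk2 (chr12:26468965-26469214, plus strand), its neighbour in the opposite orientation and a mitochondrial nucleotide kinase, had none in the window. Bst2 (chr8:71537473-71537722, minus strand) and Irgm1 (chr11:48871421-48871670, minus strand) each had 2 overlapping matches, at 130 and 124 and at 30 and 24 bases. Gbp2 (chr3:142620413-142620662, plus strand) had 1 match at 59 bases and B2m (chr2:122147437-122147686, plus strand) 1 at 139 bases. Usp18 and Ifi204 had no entry in the table.

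The match was counted over windows from 250 bases before to 50 bases after each start. It was present in 3.99% of 27025 genes and 3.44% of 32851 windows. Of the 6 rule genes with a window 5 held it, Ifit1, Ifit3, Ifit3b, Isg15 and Rsad2. A match is a description of letters, not a shown binding site, and a window without one says only that these letters are absent from it.

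Before the results, several features of the libraries bear on them. The 6 libraries held 16587 barcodes, and 4768016 to 11086603 UMIs each. The liver libraries were deeper: the median UMI count of members was 4077.5 and 2960 for liver, 1882 and 1899.5 for spleen, and 1866 and 1613 for lymph node. Members had more UMIs than the remaining cells in every library, the latter with medians of 3566, 2874, 1721.5, 1544, 1722 and 1467 in the same order. The liver and spleen libraries held 5401 to 10404 Xist UMIs and none of the Y-linked genes, whereas the lymph node libraries held 0 Xist UMIs and 1362 and 1579 Y-linked UMIs, so lymph node and this difference cannot be told apart. Library pairs shared 6 to 20 barcodes, and a doublet caller marked only 26 cells, so doublets were not resolved.

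The members carried T cell transcripts. Cd3d, a chain of the T cell receptor complex, had a UMI in 94.8% of members and 91.6% of remaining cells, and Zbtb16, which encodes the iNKT lineage factor PLZF, in 12.3% and 12.4%. Cd79a and Ms4a1 (B cells), Spi1 and Adgre1 (myeloid cells) and Alb (hepatocytes) had a UMI in 0 of 650 members, which allows up to 0.462% of cells with a UMI. The remaining cells had 0.195, 0.0819, 0.107, 0.0315 and 0.0189% for these genes in turn, all under that limit, so the zeros do not set members apart. Other genes of these lists had UMIs in a few members, at times in a larger share than in remaining cells: C1qa in 0.308% against 0.113%, Cd68 in 0.615% against 0.334%, H2-Aa in 0.615% against 0.397% and Apoa1 in 0.154% against 0.0252%. Summed over the list, B cell genes stood at 43.5 to 100 CPM in members and 23.1 to 138 CPM in remaining cells, higher in members in 3 of 6 libraries, and myeloid genes at 183 to 292 CPM and 199 to 375 CPM, higher in 2 of 6. Cd74, a major histocompatibility complex class II chaperone that is abundant in B and myeloid cells, had a UMI in 6.77% of members and 3.68% of remaining cells, and its part in the results was not tested.

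The rule genes are described without a test, because they chose the cells. Isg15 and Ifit1 were the most widely detected. Isg15 had a UMI in 78.8 to 95.1% of members per library against 10.3 to 29.9% of remaining cells, and Ifit1 in 84.0 to 91.2% against 5.89 to 10.7%. Both were present in 521 members (80.2%). Ifit3, a partner of Ifit1, was detected in 65.2 to 83.2% of members and Ifit3b in 35.3 to 61.5%; these neighbouring genes on chromosome 19 are near-identical copies, so the split of reads between them is uncertain. Usp18, which removes ISG15 from proteins and dampens IFNAR2, was detected in 33.7 to 46.5%, Rsad2 in 24.7 to 38.5%, Cmpk2 in 11.2 to 31.2%, and Ifi204, a DNA-binding protein of the PYHIN family, in 3.75 to 15.2%.

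**Figure D1:**
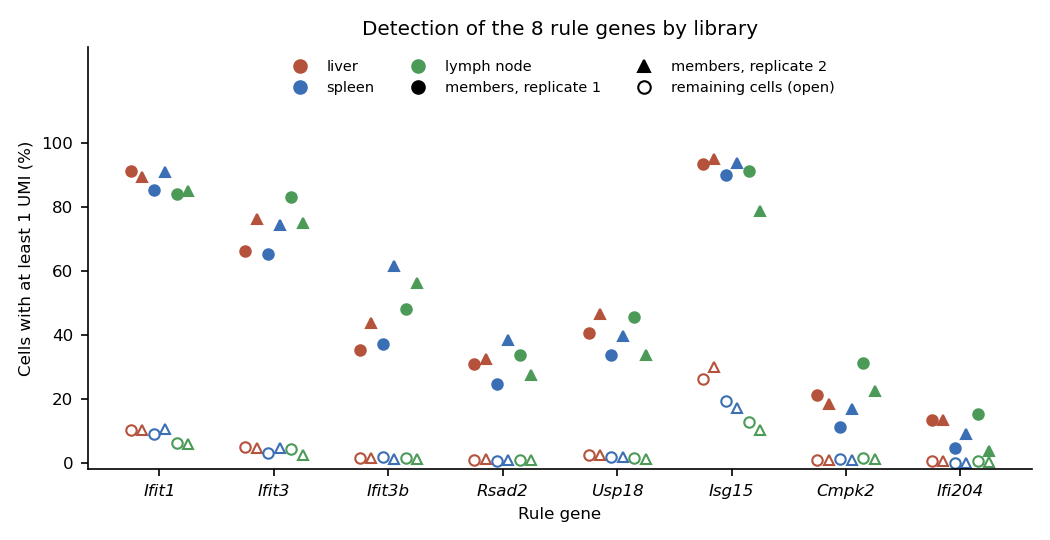
Share of cells with at least 1 UMI (y axis, %) of each of the 8 rule genes (x axis), in members (filled) and remaining cells (open) of each of the 6 libraries, coloured by organ, with circles for replicate 1 and triangles for replicate 2. Isg15 and Ifit1 are found in most members of every library, and Ifi204 in 15.2% at most. The members were selected on these genes, so the gap is not a test.

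CPM is a gene's UMIs relative to the UMIs counted in the same cells, with ribosomal protein, ribosomal RNA and haemoglobin genes left out. Isg15 stood at 1591 and 2535 CPM in the liver members and at 1775 and 2358 in those of spleen. In those of lymph node it stood at 1622 and 1363. In the remaining cells it stood at 163, 223, 187, 176, 121 and 100 CPM in the same order. Members, at 3.93% of cells, held 25.9 to 43.0% of a library's Isg15 UMIs and 34.1 to 57.5% of its Ifit1 UMIs. The rest of these UMIs lay in barcodes that did not meet the rule, and the share that came from free RNA in the droplets was not estimated.

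Members did not share a fixed combination. They showed 97 patterns of detected rule genes, of which Ifit1, Ifit3 and Isg15 together, and no other, was found in 113 cells (17.4%) and Ifit1, Usp18 and Isg15 in 43 (6.62%). Over all kept cells, 11041 (66.8%) had none of the rule genes, 3847 (23.3%) had 1 and 958 had 2, so the threshold cut a continuous range. Just inside it, 315 members had exactly 3 rule genes, and just outside it 887 cells with no Top2a UMI had exactly 2. The summed level of the 88 other interferon-stimulated genes on the lists, which the rule did not use, was 153 to 189 UMIs per 10000 in the former and 119 to 148 in the latter, by library.

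That summed level followed the number of rule genes in a cell. In liver replicate 1 it was 107 UMIs per 10000 in cells with no rule gene, 114 with 1, 138 with 2, 171 with 3, 191 with 4 and 269 with 5 or more. In lymph node replicate 1 the same steps were 79.9, 89.6, 115, 165, 197 and 292. The order held in all libraries except lymph node replicate 2, where the cells with 4 rule genes, 13 in number, had 150 against 179 for those with 3. In cells with no rule gene the level was 107 and 106 for liver, 96.0 and 89.0 for spleen and 79.9 and 75.0 for lymph node, and the organs did not overlap. These are descriptions over cells that share a library.

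**Figure D2:**
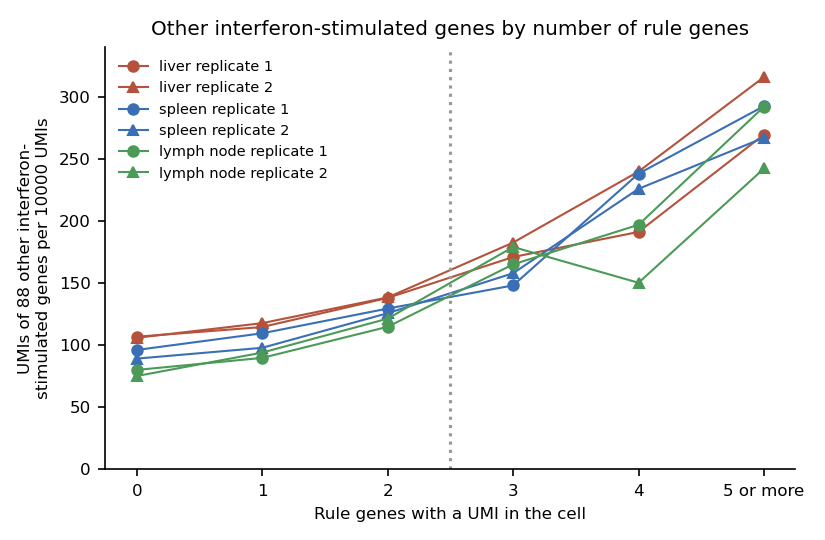
UMIs of 88 other interferon-stimulated genes per 10000 UMIs (y axis) in cells grouped by the number of rule genes with a UMI (x axis), 1 line per library. The dotted line marks the threshold for membership. All lines rise from 0 to 3 rule genes, and lymph node replicate 2 dips at 4.

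Genes outside the rule were tested between members and remaining cells with the library as a block (edgeR quasi-likelihood test, Benjamini-Hochberg adjustment, called below 0.05). They were measured in the same cells and libraries as the rule genes, so they describe what accompanies the rule genes. Of 8690 genes tested, 226 (2.6%) were called higher in members and 107 (1.23%) lower, and the median log2 fold over all genes was -0.05. When the remaining cells were restricted to those without a Top2a UMI, as the members are, 227 were called higher and 38 lower, of which 250 in all were shared with the first comparison. With matching by UMI count as well, 207 were higher and 28 lower. Genes named often lie, in the GENCODE annotation of GRCm38, at chr16:97447035-97462907 (Mx1, minus strand), chr7:78913424-78920396 (Isg20, plus strand), chr7:141262706-141266481 (Irf7, minus strand) and chr5:92346638-92348889 (Cxcl10, minus strand).

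Of the antiviral effectors 25 of the 28 tested were called higher, none lower, with a median log2 fold of 1.94. Mx1, a dynamin-like GTPase that blocks viral ribonucleoproteins, stood at 58.6 and 121 CPM in liver members, at 22.1 and 43.5 in those of spleen and at 87.0 and 45.4 in those of lymph node. In the remaining cells it stood at 11.2, 5.44, 2.45, 2.92, 2.30 and 1.72 CPM. Members were above remaining cells in all 6 libraries, by a log2 fold of 3.74 ± 0.27 (SE; edgeR adjusted p = 2.84e-41).

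Ifitm3, which hinders viral entry at endosomes, was present at 160, 207, 125, 218, 225 and 45.4 CPM in the members of liver, spleen and lymph node and at 6.26 to 30.9 CPM in the remaining cells. Its lowest member library, lymph node replicate 2, was above every library of remaining cells, and the log2 fold was 3.59 ± 0.18. Isg20, an RNA exonuclease, stood at 254 to 527 CPM in members and 41.3 to 47.8 CPM in remaining cells, an even background, with a log2 fold of 2.97 ± 0.11. Bst2, or tetherin, which holds budding virions at the membrane and whose promoter is printed above, was among the more abundant, at 754, 808, 700, 757, 911 and 754 CPM against 160 to 271 (log2 fold 1.95 ± 0.07). Oasl2 and Oas3 of the oligoadenylate synthetase family, which sense double-stranded RNA, had log2 folds of 2.88 and 2.36. Ifit2 (2.92), Tor3a (2.45), Eif2ak2 (2.10), the kinase PKR that stops translation, Rtp4 (2.07) and Xaf1 (1.83) were also called higher, whereas Oas1c (1.02) and Ifi27 (-0.18) were not called.

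The nucleic acid sensors were called higher in 8 of 16 tested, with a median log2 fold of 1.36. Ifih1, which encodes the double-stranded RNA sensor MDA5, stood at 56.0 to 148 CPM in members and 8.64 to 20.7 CPM in remaining cells, without overlap (log2 fold 2.44 ± 0.23; edgeR adjusted p = 2.49e-24). Dhx58 (2.34) and Ddx58 (1.42), the other RIG-I-like receptors, were called too, as was Zbp1, a sensor of Z-form nucleic acid, at 564 to 788 CPM against 128 to 256 (log2 fold 1.80).

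The Schlafen, PHF11 and PARP list was called higher in 16 of 17 tested, with a median of 1.69. Slfn5 stood at 127, 135, 125, 174, 97.2 and 54.5 CPM in members and at 8.96 to 13.8 CPM in remaining cells. Its levels did not overlap and its log2 fold was 3.45 ± 0.21. Phf11d (2.67) and Phf11a (2.56) are close copies of each other, and reads they share could be split between them. Sp140 was not called, at 0.33.

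All 14 tested guanylate-binding proteins and immunity-related GTPases, which attack vacuoles that hold pathogens and are classic targets of interferon-γ, were called higher, with a median of 1.62. Iigp1 stood at 163, 256, 169, 296, 261 and 254 CPM in members against 25.8 to 50.7 CPM (log2 fold 2.68 ± 0.13). Gbp2 stood at 321, 266, 228, 322, 271 and 90.9 CPM against 50.4 to 130 CPM, so that lymph node replicate 2 lay within the range of the remaining cells of other organs, though above the 52.8 CPM of its own (log2 fold 1.66 ± 0.11). Irgm1 (1.67), Igtp (1.44) and Tgtp1 (1.98) were also called. Of the 18 genes listed, 10 had a promoter window, among them Gbp2b, which was not tested, and all 10 held the match described above. Iigp1, Gbp4, Gbp6, Gbp8 and Gbp9, which were called, had no window.

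Of the ISG15-conjugation and TRIM genes, 9 of 14 tested were called higher, with a median of 0.90. Ube2l6 (log2 fold 2.46), the enzyme that conjugates ISG15, and Herc6 (2.20), a ligase for it, were called, and Trim30a (1.85) and Trim25 (1.68), a ligase that acts on RIG-I, were called as well.

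Signalling genes upstream gave a mixed picture. Of the STAT and IRF factors 6 of 15 tested were called higher, with a median of 0.31. Irf7, the factor that amplifies type I interferon transcription, stood at 300, 335, 449, 574, 440 and 454 CPM against 80.6 to 127 CPM (log2 fold 2.01 ± 0.09; edgeR adjusted p = 9.63e-97). Stat2 (1.77) and Irf9 (1.02), which act downstream of the type I receptor, were called too, and Irf1 (0.48) and Irf2 (0.64) were called with smaller folds and lost their calls when cells were thinned to 1000 UMIs, Irf1 also under DESeq2.

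The receptors and kinases moved little: 1 of 8 tested was called higher and 1 lower, with a median of 0.07. Jak2 was higher by 0.69 and Ifngr1, the ligand-binding chain of the interferon-γ receptor, was lower by -0.37, at 415, 387, 133, 148, 92.1 and 136 CPM in members against 503, 519, 164, 174, 174 and 231. Both lost their calls under DESeq2 and without liver replicate 2, and Jak2 also without liver replicate 1 and in thinned cells. Ifnar1 (0.25; edgeR adjusted p = 0.675) and Ifnar2 (-0.06; 0.974) were not called. Among 10 negative regulators Socs1, an inhibitor of JAK kinases, was higher by 0.63 and Socs2 lower by -0.56, the latter not called under DESeq2, and the other 8 were not called.

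The type I and type III interferon genes were not detected in members. The 15 listed genes of type I and type III interferons had 0 UMIs in members, whose UMIs of the genes kept for testing number 1253558, which allows up to 2.39 CPM for each, and 4 UMIs in all in the remaining cells. Ifng, which encodes interferon-γ, was at 221, 292, 133, 52.2, 153 and 127 CPM in members and 99.7, 155, 72.1, 56.3, 125 and 107 in remaining cells. It was higher in members in 5 of 6 libraries, by 0.82 ± 0.12 (edgeR adjusted p = 2.21e-10). Within organs it was called in liver (1.09) and not in spleen (0.51; edgeR adjusted p = 0.81) or lymph node (0.25; 0.90), and it was not called without the library block (adjusted p = 0.113). A single member of liver replicate 2 held 43 of that library's 89 member UMIs of Ifng, and a single member of liver replicate 1 held 25 of 87.

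Antigen presentation genes were called higher in 15 of 22 tested, with smaller folds and a median of 0.46. Tap1, a subunit of the peptide transporter, stood at 369, 263, 147, 157, 220 and 100 CPM in members against 201, 195, 119, 97.5, 95.3 and 93.3 CPM, higher in each library though by little in lymph node replicate 2 (log2 fold 0.73 ± 0.11). Psmb9 (0.50) and Psmb8 (0.46), subunits of the immunoproteasome, and B2m (0.30), the class I light chain, were called. With cells thinned to 1000 UMIs before the rule and the sums, 5 of 21 were called, and matching the remaining cells by UMI count gave 16 of 20.

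Among chemokines, cytokines and death genes 6 of 19 tested were called higher and 1 lower, with a median of 0.11. Cxcl10, a chemokine for CXCR3-bearing cells, stood at 270 and 299 CPM in liver members, 118 and 183 in those of spleen and 71.6 and 18.2 in those of lymph node, and at 39.0, 50.9, 3.54, 6.42, 7.48 and 10.6 CPM in remaining cells. Its log2 fold was 3.03 ± 0.22. Of the 16 member UMIs of Cxcl10 in spleen replicate 1, at 118 CPM, 13 lay in 1 cell. Daxx (1.81), a regulator of cell death, Tnfsf10 (0.93), the death ligand TRAIL, and Casp8 (0.41) were called higher and Bcl2, a survival factor, lower (-0.52). Tnfsf10 and Casp8 lost their calls in thinned cells, and Bcl2 lost its call under DESeq2 and without the library block.

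Gzmb and Il13 were called on few libraries. Gzmb, a cytotoxic protease, was at 311 and 397 CPM in liver members against 154 and 206 CPM, and at most 18.2 CPM in members elsewhere (1.01, not called under DESeq2). Il13 was called at 1.68, but 20 of the 22 lymph node UMIs lay in a single cell of lymph node replicate 1, and the call was lost without that library. Il4 was not called, at 0.21.

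Activation genes were called higher in 6 of 17 tested, with a median of 0.16. Cd69, an early activation antigen that interferon also induces, stood at 165, 273, 184, 252, 235 and 364 CPM against 95.2, 108, 77.6, 71.2, 127 and 154 CPM, higher in all 6 libraries (log2 fold 1.19 ± 0.11). Cd274, which encodes PD-L1, was higher by 1.39 and Ly6a by 0.98.

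**Figure D3:**
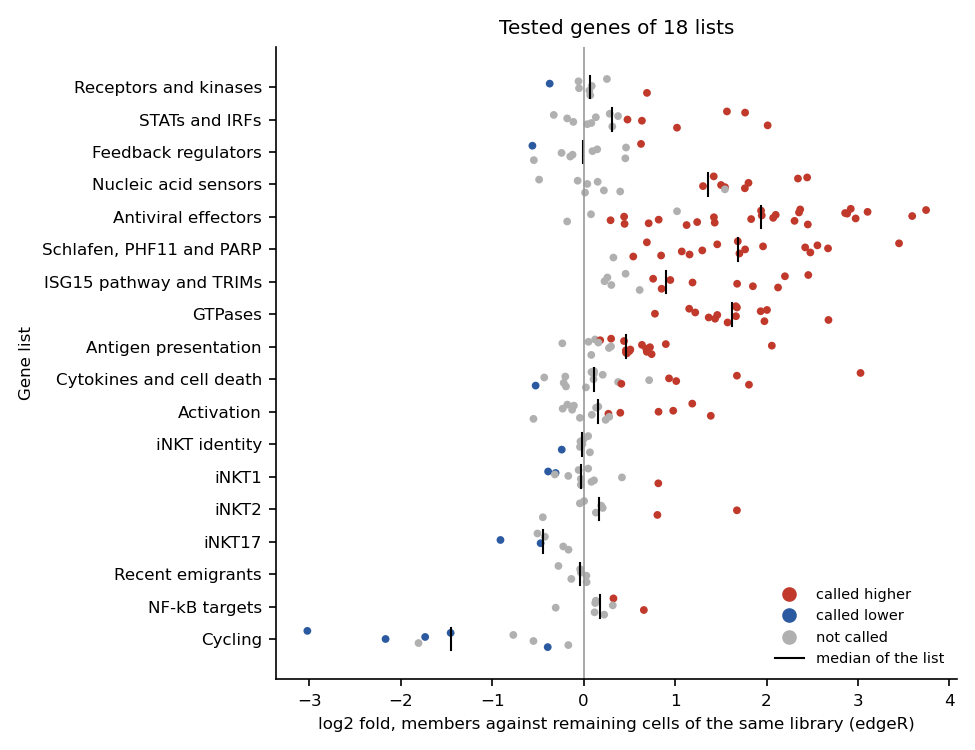
Log2 fold of members against the remaining cells of the same library (x axis, edgeR) for each tested gene of 18 lists (y axis), with genes called higher in red, called lower in blue and not called in grey, and the median as a black bar. The GTPase list is red throughout (14 of 14), receptors and kinases centre near 0, and the cycling list lies to the left.

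Of 9 cycling genes tested 5 were called lower (Birc5, Ccnb2, Cdk1, Mki67 and Pcna) and 4 were not called, with a median of -1.45. The rule bars a cell with a Top2a UMI, so these values are not independent of it. Top2a was detected in 3.02 to 7.05% of remaining cells. Hist1h2ap, a histone gene of S phase, stood at 6.57 to 20.4 CPM in members and 79.5 to 642 CPM in remaining cells (-4.58), and Rrm2 (-2.30), 2810417H13Rik (-2.59), Birc5 (-2.17), Cks1b (-1.25) and Pmf1 (-0.80) were also lower. Against remaining cells without a Top2a UMI none of these genes was called, with Hist1h2ap at -0.78 (edgeR adjusted p = 0.426) and Rrm2 at -0.37 (0.874), and the cycling list had 0 of 8 called and a median of 0.12. Pxdc1, a marker of iNKT17 cells, and Actn2, an actinin, kept their calls there, at -0.94 (edgeR adjusted p = 7.93e-05) and -0.84 (0.00549), though neither was called by DESeq2.

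Over the lists together 124 genes were called, and 79 of these kept the call under every alternative in which they were tested, 72 of them in all 18 alternatives.

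The promoter match was also counted by call. Of the 179 genes higher in members with a window, 51 (28.5%) held it, against 3 of 77 genes (3.90%) lower in members and 196 of 6453 tested genes (3.04%) that were not called. By list it was found in 12 of 26 antiviral effectors (46.2%), 8 of 16 ISG15 and TRIM genes (50%) and 8 of 15 sensors (53.3%). It was also found in 6 of 17 Schlafen, PHF11 and PARP genes (35.3%) and 3 of 14 STAT and IRF genes (21.4%). Antigen presentation genes held it in 5 of 19 (26.3%) and cycling genes in 0 of 8. When a spacer of 1 base was accepted as well as 2, the shares were 34.6% of genes higher in members, 5.83% of genes not called and 7.27% of all genes.

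The subset make-up of members was compared after every cell had been thinned to 1000 UMIs, which left 291 members and 2801 and 2852 cells in all from liver, 2585 and 2486 from spleen and 2373 and 2360 from lymph node. A cell counted as marked when at least 2 genes of a list had a UMI. Markers of iNKT1 cells were found in 91.7 and 84.7% of liver members, 79.5 and 76.0% of spleen members and 33.8 and 60% of lymph node members, against 87.9, 89.5, 78.9, 77.2, 29.0 and 24.7% of remaining cells. The largest gap was in lymph node replicate 2, and over libraries the means of 70.9% ± 21.1 and 64.5% ± 29.6 (SD, n = 6) were not told apart by the test (exact sign-flip test, two-sided, p = 0.406). Markers of iNKT17 cells were found in 8.11 and 6.67% of lymph node members against 23.9 and 30.5% of remaining cells, and the mean over libraries was 4.70% against 11.7% (exact p = 0.188, lower in 5 of 6). Markers of recent thymic emigrants were found in 4.65% against 8.41%, lower in 6 of 6 libraries (exact p = 0.03125, the smallest that 6 libraries allow, and 0.25 after Benjamini-Hochberg adjustment over 8 lists). Without thinning the emigrant shares were 23.3% and 23%. When at least 3 genes of the list were required in place of 2, they were 1.07% and 1.12%, lower in 4 of 6 libraries. For iNKT2 markers the means were 19.4% and 18.4% (exact p = 0.656), for NF-κB targets 14.2% and 12% (exact p = 0.406) and for cycling genes, where the bar on Top2a takes part, 2.11% and 3.52% (exact p = 0.0938). Single libraries moved these differences, in percentage points of members minus remaining cells. Without lymph node replicate 2 the iNKT1 difference went from 6.41 to 0.63 and that of iNKT17 from -6.99 to -3.63. Without liver replicate 1 the NF-κB difference went from 2.25 to 0.82 and the cycling one from -1.41 to -0.94, and without liver replicate 2 the NF-κB one was 1.05. The iNKT2 difference of 0.91 ran from -0.89 without liver replicate 2 to 2.73 without lymph node replicate 1, and was 0.45 and 0.61 without spleen replicates 1 and 2. Requiring at least 3 genes of a list gave differences of 2.94 for iNKT1, -1.83 for iNKT17 and -0.72 for cycling genes. For iNKT2 markers and NF-κB targets the sign turned, to -0.13 and -0.08. Without thinning the cycling shares were 9.58% and 9.26%, higher in members in 4 of 6 libraries. The unthinned shares were 49.4% and 44.4% for iNKT2 markers and 33.9% and 28.2% for NF-κB targets, each higher in members in 5 of 6. B cell and myeloid markers were found in 0% of thinned members, which allows up to 1.03% and so cannot be set apart from the 0.138% of remaining cells. Without thinning the shares were 0.123% of members and 0.324% of remaining cells for B cell markers and 0.362% and 0.517% for myeloid markers.

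Among single genes the picture was similar. Of the iNKT identity genes Thy1 was lower (-0.24) and the other 6 tested were not called, Zbtb16 at -0.01 among them. Tbx21 (0.05) and Gata3 (0.01), which encode the factors of iNKT1 and iNKT2 cells, were not called. Klrb1c (-0.39) and Klrd1 (-0.31), natural killer receptors, were called lower, and Plac8 higher (0.81). Several of these calls were fragile: over 18 alternatives Klrd1 was called in 7, Thy1 in 11 and Klrb1c in 13, and none of the 3 with DESeq2. Over the subset lists 1 of 12 iNKT1 genes was called higher (Ifng) and 2 lower, 2 of 8 iNKT2 genes higher (Plac8 and Il13), 2 of 6 iNKT17 genes lower (Pxdc1 and Tmem176a, the latter at -0.47 and called in 9 of 18 alternatives) and 0 of 6 emigrant genes. Of 8 NF-κB targets Icam1 (0.66) and Nfkbia (0.33) were called higher, and neither in thinned cells. The lists of B cell genes (2 tested), myeloid genes (2) and natural killer, CD8 and CD4 T cell genes (only Cd4) had no call. Summed, the last list stood at 25.6 to 125 CPM in members and 32.2 to 74.4 CPM in remaining cells, higher in members in 4 of 6 libraries, with Ncr1 in 0.769% of members against 0.290% and Cd8b1 in 0.615% against 0.365%. The part of such cells in the results was not tested, and no hepatocyte or red cell gene had enough counts to be tested.

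The share of members by organ depended on depth. With all UMIs the liver libraries had 4.86 and 4.96%, the spleen libraries 3.26 and 2.94% and the lymph node libraries 4.74 and 2.81%. Because a deeper cell meets a rule of 3 detected genes more easily, the shares were also taken after thinning each cell to 1000 UMIs. Liver then had 0.857 and 2.07%, spleen 1.51 and 2.01% and lymph node 3.12 and 1.91%, and liver had the highest mean before thinning and the lowest after. The thinned means of 1.46% ± 0.857, 1.76% ± 0.355 and 2.51% ± 0.857 (SD, n = 2 libraries each) did not differ beyond the spread (exact permutation test over 15 splits, two-sided, p = 0.6; the smallest p that this design allows is 0.0667). The exact binomial 95% interval of liver replicate 1 was 0.550 to 1.27%, and such intervals cover counting error only.

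**Figure D4:**
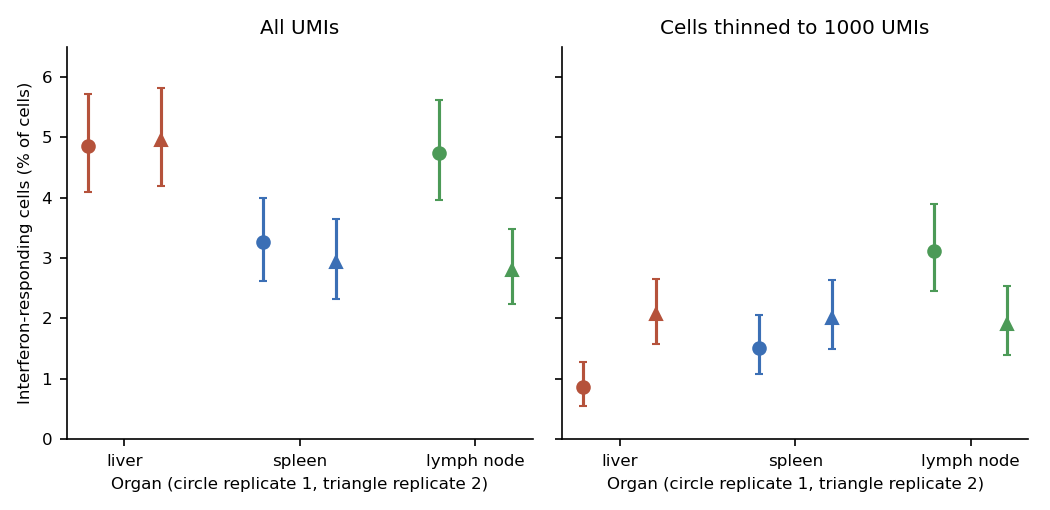
Share of cells that met the rule (y axis, %) in each library by organ (x axis), with all UMIs (left) and after thinning to 1000 UMIs (right), with circles for replicate 1, triangles for replicate 2 and bars for the exact binomial 95% interval, counting error only. The liver libraries are highest on the left, and liver replicate 1 is lowest on the right at 0.857%.

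Members were next compared between organs over 3329 genes. Liver and spleen differed in 146 genes (4.39%), liver and lymph node in 467 (14%), and spleen and lymph node in 85 (2.55%). The levels of the remaining cells are given beside several of the genes with the largest differences. Gzmb had 243 UMIs in liver members and 3 in spleen members, a 29.1-fold difference in CPM (counting interval 9.85 to 142), and its remaining-cell levels were 154 and 206 CPM in liver and 11.7 and 5.54 in spleen. Socs2 had 133 against 3 UMIs (15.9-fold), with 273 and 241 CPM in remaining liver cells and 61.5 and 63.3 in remaining spleen cells. Tmem176a was higher in liver than in spleen (66 against 2 UMIs) and in lymph node than in spleen (49 against 2).

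Fos, an immediate early gene, was called higher in lymph node members than in those of liver and of spleen. Its level was 5.09 and 9.85 CPM in liver members and 36.8 and 69.6 in spleen members. In lymph node members it was 486 and 427 CPM. The remaining cells gave 13.7, 8.43, 26.1, 20.7, 568 and 593 CPM, the same order of organs. Pxdc1 had 48 UMIs in lymph node members against 2 in liver and 3 in spleen. Ccr10, a receptor for skin and mucosal chemokines, had 29 UMIs in lymph node members and 0 in liver members, at least 22.1-fold higher against a floor of 3 UMIs over the group. Both had the same order in remaining cells. Pxdc1 had a UMI there in 23.3 and 24.6% in lymph node, 2.66 and 2.21% in liver and 2.39 and 2.21% in spleen. Ccr10 had one in 9.31 and 7.62% in lymph node and 0.450 and 0.699% in liver.

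Mmp9, a matrix protease, was at 73.8 and 115 CPM in liver members and had 0 UMIs in lymph node members (at least 9.35-fold higher in liver). It had a UMI in 17.2 and 10.4% of remaining liver cells and 0.279 and 0.434% of remaining lymph node cells. Serpinb9, an inhibitor of granzyme B, had 55 UMIs in liver members, 15 in spleen and 0 in lymph node (at least 8.03-fold and 6.09-fold higher), while the remaining lymph node cells held 25.3 and 22.7 CPM. Art2b (31 against 2 UMIs) and Gimap7 (91 against 21) were higher in spleen than lymph node members, and Ciart, a clock repressor, was higher in lymph node (24 against 0, at least 6.56-fold). Rbm8a2 (20 against 15 UMIs, in the smaller spleen total) and 2610524H06Rik (19 against 10) were higher in spleen than liver and lost their calls when single libraries were left out.

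Calls between the members of different organs were also counted for the lists of interferon-stimulated genes, and the lists were not tested against each other. Of 24 antiviral effectors tested among members, 0 were called for liver against spleen, 1 in each direction for liver against lymph node, and 1 for spleen against lymph node. Of 9 sensors none was called in any of the 3 comparisons, and of 10 ISG15 and TRIM genes 1, higher in liver than lymph node. Antigen presentation genes were called higher in liver for 4 of 18 tested against spleen and for 7 of 18 against lymph node, H2-K1, H2-Q6, H2-Q7 and Tap1 in both, and 1 of 18, Psme2, was higher in spleen than lymph node. The remaining cells had the same order against lymph node, with a summed level of the list of 22406 and 23923 CPM in the liver libraries and 16495 and 15393 CPM in those of lymph node. No gene of the list was called in the test of whether the fold of members against remaining cells differed between organs. Of 10 STAT and IRF genes Irf1 and Irf8 were higher in liver than spleen and Irf7 lower, and 3 (Irf1, Irf8 and Stat4) were higher in liver than lymph node. Of 14 GTPases Igtp was higher in liver than spleen, and 3 (Gbp3, Gbp4 and Igtp) were higher in liver than lymph node. The summed GTPase level of remaining cells was 1242 and 1410 CPM in liver, 882 and 846 in spleen, 697 and 764 in lymph node. That of STAT and IRF genes was 1433 and 1476, 1206 and 1044, and 869 and 858 CPM in the same order. Of 16 Schlafen, PHF11 and PARP genes 2 were higher and 1 lower in liver than lymph node, and 0 were called in the other comparisons. A gene that was not called between organs may still differ. Of all genes tested, 2.67% were called higher and 1.71% lower in liver than spleen (4.39% in all), 7.24% and 6.79% in liver than lymph node (14%), and 0.811% and 1.74% in spleen than lymph node (2.55%). The liver libraries were deeper.

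Whether the member difference itself depended on the organ was tested as an interaction over 9788 genes. For liver against spleen 1 gene (0.0102%) was called, for liver against lymph node 21 (0.215%), and for spleen against lymph node 4 (0.0409%). Of the antiviral effectors, sensors, ISG15 and TRIM genes, GTPases and Schlafen, PHF11 and PARP genes, 96 were tested here, none of them a rule gene. Their median log2 fold of members against remaining cells was 1.42 within liver, 1.35 within spleen and 1.68 within lymph node, where the medians of all genes were -0.02, -0.15 and -0.14. Since members were chosen on transcripts of related genes, these folds are a description. The median difference between liver and lymph node over the 96 genes was -0.24, with 66 of 96 below 0 and an all-gene median of 0.12. In cells thinned to 1000 UMIs it was -0.29 beside an all-gene median of -0.27, so the gap to the other genes was small there. With remaining cells matched by UMI count it was -0.41 beside -0.01. Spleen against lymph node gave a like value, a median of -0.23 with 68 of 96 below 0 beside an all-gene median of -0.03 (-0.37 beside -0.12 in thinned cells), and liver against spleen gave 0.04 with 53 of 96 above 0 beside 0.13. The sign of the last depended on how depth was handled: it was 0.24 with 53 of 92 above 0 in thinned cells (all-gene median -0.14) and -0.14 with 28 of 87 above 0 after UMI matching (all-gene median -0.00217).

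Named genes differed in both directions. Cxcl10 had a log2 fold of 2.73 within liver, 4.85 within spleen and 2.49 within lymph node, with the spleen fold set apart from that of liver in 5 of 11 alternatives and from that of lymph node in 1 of 11, and its remaining-cell level was highest in liver. Few member UMIs lay behind these folds outside liver. Spleen replicate 1 had 16, of which 13 lay in 1 cell, and spleen replicate 2 had 21 in 10 cells. The lymph node libraries had 14 and 2. Oasl2 was at 3.95 and 5.62 CPM in remaining liver cells and 30.8 and 32.7 CPM in remaining lymph node cells, and its member fold was 3.90 within liver and 1.90 within lymph node, a difference called in 6 of 11 alternatives and not under DESeq2, thinning or UMI matching. Bst2 went the other way, with 1.73 and 2.33, as did Zbp1 with 1.62 and 2.27, and these differences were called in 6 and 5 of 11 alternatives, without DESeq2 among them. Plac8 stood at 1112 and 1330 CPM in liver members, at 331 and 383 in those of spleen and at 215 and 182 in those of lymph node, and its fold was 0.82, 0.23 (not called) and 1.65 within the organs in that order, the spleen and lymph node folds differing in 6 of 11 alternatives.

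**Figure D5:**
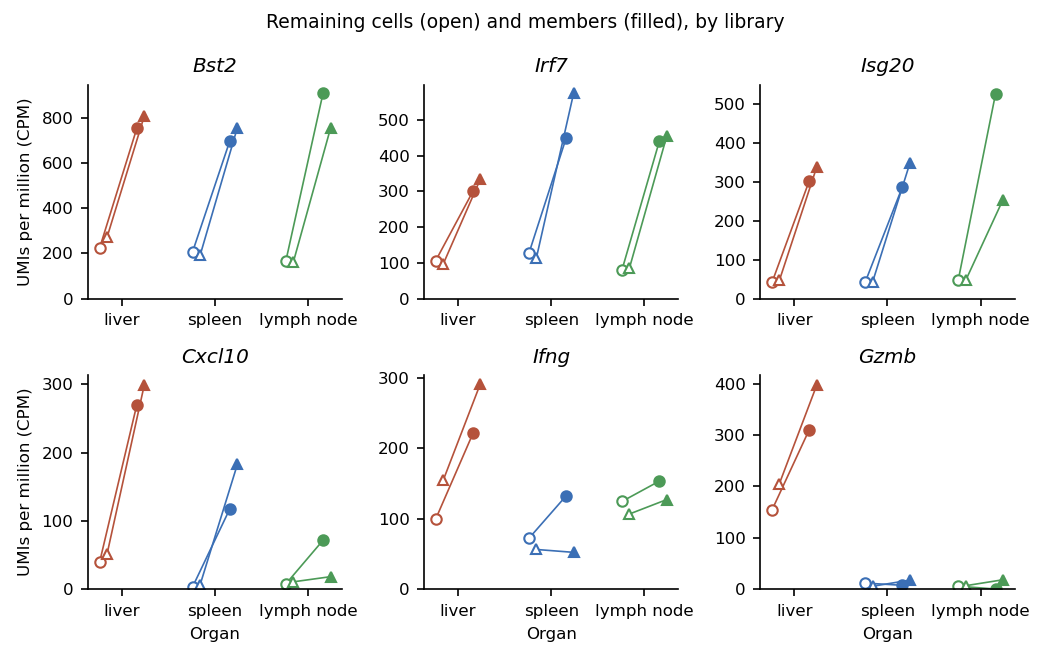
Level in CPM (y axis) of Bst2, Irf7, Isg20, Cxcl10, Ifng and Gzmb in remaining cells (open) and members (filled) of each library, joined by a line, by organ (x axis), with circles for replicate 1 and triangles for replicate 2. Every line rises for Bst2, Irf7, Isg20 and Cxcl10, whereas Ifng falls slightly in spleen replicate 2 (56.3 to 52.2 CPM) and Gzmb rises clearly in liver.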

How the data were processed

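The samples were 6 libraries of sorted iNKT cells, 2 each from liver, spleen and lymph node. The authors deposited raw UMI counts per gene and barcode for each library, with the deposited barcode and gene lists as other, non-numeric files; the submitters' processing notes name Cell Ranger (3.1.0), Seurat and the mm10 build. The annotation version is not given in the sources used here, and the molecule is labelled nuclear RNA. No column was left unmatched to a sample (0).

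From the deposited counts, cells with 300 to 4000 genes and at most 15% mitochondrial UMIs were kept, which left out 55 of 16587 barcodes (2 under 300 genes, 10 over 4000 and 45 over 15%, some by more than 1 filter). A further 36 cells met the rule for 3 genes and held a Top2a UMI, and these were counted with the remaining cells. Ribosomal protein, ribosomal RNA and haemoglobin genes, 192 in all, holding 24.5 to 35.8% of a library's UMIs, were left out of totals and tests. Counts were summed per library over members and over remaining cells, scaled to CPM for display, and tested with edgeR's quasi-likelihood test (4.0.16, with limma 3.58.1 in R 4.3.3), TMM scaling, filterByExpr (minimum count 10) and Benjamini-Hochberg adjustment at 0.05 over all genes tested. The library was a block between members and remaining cells; members were compared between organs over 2 libraries each. DESeq2 (1.42.0) was an alternative. Shares were compared with exact permutation or sign-flip tests after thinning each cell to 1000 UMIs, shallower cells left out (Python 3.11.15, scanpy 1.11.5, scipy 1.17.1). Scrublet called 26 of 16532 cells, and these calls were not used; instead, the 2% of cells with the highest scores in each library (331, among them 11 members) were left out as an alternative.

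The text names the 12 genes highest and 8 lowest by log2 fold with a mean of at least 50 CPM in either group and the same sign in all 6 libraries, 3 genes in each direction between each pair of organs, and genes of 23 lists. The members, the lists and the tests were chosen with earlier results of these data known. Gene positions are from GENCODE, and promoter windows and their sequences are from RefSeq (GRCm38.p6). The tests were checked on simulated data with 200 changed genes. Some genes are not reported here.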

Additional observations from a re-analysis of the deposited data

Results flagged for a closer look

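In each of the following, the log2 fold of members against remaining cells differed between a pair of organs by a test of that difference (edgeR quasi-likelihood interaction test, Benjamini-Hochberg adjustment over 9788 genes). Each is given with the number of the 11 alternatives under which it was called in the same direction, and most were not called under DESeq2.

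For liver against spleen this held for Cxcl10, with a difference of -2.13 (edgeR adjusted p = 0.00148; 5 of 11 alternatives). For spleen against lymph node Cxcl10 differed by 2.36 (edgeR adjusted p = 0.0397; 1 of 11), Ms4a4b by -0.68 (9 of 11) and Plac8 by -1.41 (6 of 11). Neither value of Cxcl10 was called when the remaining cells were restricted to those without a Top2a UMI (edgeR adjusted p = 0.103 and 0.0625). Of its 16 member UMIs in spleen replicate 1, 13 lay in 1 cell.

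Gzma, a granzyme, differed by -4.78 between liver and lymph node (10 of 11) and by -3.88 between spleen and lymph node (9 of 11). Its lymph node UMIs came from few members: 16 of 17 lay in 1 cell of replicate 1 and 12 of 13 in 1 cell of replicate 2. Stmn1, a gene of dividing cells, differed by -2.17 between liver and lymph node (9 of 11), and by -1.38 when the remaining cells had no Top2a UMI.

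Of the interferon-stimulated genes, the test gave a smaller fold in liver than in lymph node for Slfn1 (-0.82; 6 of 11), Zbp1 (-0.64; 5 of 11), Mndal (-0.63; 6 of 11), Ifi27l2a (-0.62; 8 of 11) and Bst2 (-0.61; 6 of 11), and a larger fold in liver for Oasl2 (2.01; 6 of 11). None of these 6 was called under DESeq2 or without liver replicate 1. Amica1 (1.52; 9 of 11), an adhesion molecule, Lmo4 (0.93; 7 of 11) and Nfkb1 (1.30; 2 of 11) had a larger fold in liver, and Ms4a4b (-0.64; 11 of 11) a smaller one. The liver libraries were deeper. With every cell thinned to 1000 UMIs, which also left fewer UMIs to test, Ifi27l2a (-1.11), Ms4a4b (-0.90), Amica1 (2.26) and Slfn1 (-1.93) were still called by edgeR, while Zbp1, Mndal, Bst2, Oasl2 and Nfkb1 were not, nor was Lmo4, whose sign reversed (-0.42). With remaining cells matched by UMI count, Zbp1, Oasl2 and Nfkb1 were not called and the other genes of this paragraph were. The lymph node libraries also differed in Xist and Y-linked UMIs, and that difference cannot be told apart from the organ.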

How the results depend on the processing

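The higher calls in members (226) stayed within 1.5 times under every alternative except thinning to 1000 UMIs (117), at 194 to 231 without single libraries. The lower calls (107) fell to 24 with DESeq2, 47 with remaining cells matched by UMI count, 58 against cells with no rule gene, 65 with at least 4 rule genes, 67 with no library block, and 60 to 98 without single libraries (60 without liver replicate 2). Against remaining cells with no Top2a UMI, an alternative chosen after seeing the data, they were 38, and 28 with UMI matching added. Mean shares of members in liver, spleen and lymph node were 4.91, 3.1 and 3.77% with cells not thinned, 4.56, 4.79 and 4.77% with at least 2 rule genes, and, in liver and spleen, 2.52 and 2.81% at 1500 UMIs. With at least 4 they were 0.723, 0.814 and 1.22%. Without 1 library the shares were 0.857 to 2.07, 1.51 to 2.01 and 1.91 to 3.12%. Between organs, genes higher in liver than spleen (89) numbered 26 with DESeq2, 16 thinned, 48 with at least 4 rule genes and 54 to 105 without 1 library (54 without spleen replicate 2), and genes lower (57) 10, 4, 29 and 19 to 78 (19 without liver replicate 1, 29 without spleen replicate 2), with 27 under no filter on low counts. For liver over lymph node (241) they were 63, 38, 117 and 136 to 289 (144 without liver replicate 1, 136 without lymph node replicate 1), and below it (226) 72, 38, 110 and 127 to 250 (127 and 138 without those libraries). For spleen over lymph node (27) they were 11, 10, 17 and 18 to 34, and below it (58) 19, 18, 35 and 34 to 68 (34 without lymph node replicate 1). The interaction between liver and spleen (1) gave 0 with DESeq2 (104 at an unadjusted p under 0.05), 0 thinned (166), 0 with no Top2a UMI (388), 2 with no filter, 2 with UMI matching and 0 to 2 without 1 library. Between liver and lymph node (21) it gave 3, 7 and 7 to 23 (7 without liver replicate 1, 13 without liver replicate 2, 9 without lymph node replicate 1), and between spleen and lymph node (4) 0 with DESeq2 (159), 0 thinned (173) and 2 to 6. Lmo4 reversed to -0.42 when thinned. The causes were not tested. With the replicate block the organ calls were 182, 495 and 104. Same-numbered libraries correlated in their deviations by 0.103, -0.0152 and 0.0128. With 2 libraries per organ these values cannot settle whether the numbers pair the libraries, and the labels do not say. The limits are depth and number: 2 libraries per organ, 1467 to 4077.5 UMIs in a median cell, and rule genes that many cells may miss at that depth.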
